A study of Homo sapiens with 6 samples.

Results

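The NRF2 antioxidant genes described here are 9 genes: the transcription factor NRF2 (gene NFE2L2), its inhibitor KEAP1, and the targets NQO1, HMOX1, GCLC, GCLM, TXNRD1, SRXN1 and ME1. They were found by symbol in a table of 56478 gene rows, and all 9 had a row. RNA was sequenced from BT20, an established line of human breast carcinoma cells that is classed as triple negative (without estrogen, progesterone and HER2 receptors). The design has 3 libraries of BT20 carrying a control short hairpin RNA (shControl) and 3 carrying a hairpin against cytokeratin 5 (shCK5-22), the basal keratin encoded by KRT5. Both arms were grown in medium with serum, with no added treatment and no oxidant or NRF2 activator. Each arm has 1 hairpin in 1 cell line. The comparison asks which transcripts differ when cytokeratin 5 is knocked down.

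NRF2 is held low in resting cells because KEAP1 presents it to a CUL3 ubiquitin ligase, which marks it for destruction. Oxidants and electrophiles modify cysteines of KEAP1, NRF2 then accumulates, pairs with a small MAF protein and binds antioxidant response elements near its target genes. The targets make glutathione, reduce thioredoxin and quinones, break down heme and supply NADPH. NRF2 is controlled largely at the level of the protein, which RNA counts do not measure.

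The antioxidant response element has the core TGACNNNGC, and the stretches that hold it in the members' promoters are shown because this is the kind of site through which the pathway is known to act. Promoter windows of 300 bases (250 before to 50 after a transcript start) were taken from RefSeq on GRCh38.p14. There were 11 windows for 8 of the 9 members, with no entry for HMOX1. The core was searched on both strands. It was present in 5 of the 11 windows and for 4 of the 8 genes, where 13.3% of all 35116 promoter windows and 16.1% of all genes hold it. The 6 matches that lay wholly before the start are printed 5′ to 3′ on the gene's strand, with the 9 bases of the core in capitals. ME1 and TXNRD1 each held another match, after or across a start, that is not printed.
GCLM, chr1:93909436-93909484, minus strand: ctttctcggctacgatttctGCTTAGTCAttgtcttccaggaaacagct
ME1, chr6:83431160-83431208, minus strand: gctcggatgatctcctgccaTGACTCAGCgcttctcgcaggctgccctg
TXNRD1, chr12:104215660-104215708, plus strand: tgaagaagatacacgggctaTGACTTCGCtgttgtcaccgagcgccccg
TXNRD1, second start, chr12:104286920-104286948, plus strand: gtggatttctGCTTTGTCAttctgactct
KEAP1, second start, chr19:10502807-10502835, minus strand: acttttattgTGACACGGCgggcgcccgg
KEAP1, second start, chr19:10502784-10502812, minus strand: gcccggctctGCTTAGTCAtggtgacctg

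The first capital base lies 34 bases before the start for GCLM, 137 for ME1, 99 and 102 at the first and second starts of TXNRD1, and 54 and 31 for KEAP1. Read in the direction of the motif, the GCLM site and the KEAP1 site nearest its start are both TGACTAAGC. The ME1 site, TGACTCAGC, also contains the AP-1 motif TGANTCA, which 7.71% of all windows hold; no other member's windows held that motif. The stretches of ME1 and the first start of TXNRD1 lie outside the gene spans of GENCODE release 29. Those of KEAP1 and of the second start of TXNRD1 lie in annotated exons of longer transcripts, and the GCLM stretch crosses the annotated start. The windows of NFE2L2, NQO1, GCLC and SRXN1 did not hold these letters, which says nothing of sites farther away.

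Libraries held between 47622067 and 65429616 counts, and 18008 genes passed the filter on low counts. The level of KRT5, which the hairpin targets, in CPM (the count divided by the TMM-scaled library size, on a common scale) was 230.7, 246.6 and 244.3 for shControl replicates 1, 2 and 3 and 21.1, 22.7 and 24.1 for shCK5-22 replicates 1, 2 and 3, which is 10.7-fold lower. Epithelial markers were present in both arms: EPCAM (234 and 236 CPM in shControl and shCK5-22) and KRT8 (3815 and 3956 CPM) were not called, while CDH1 (553 and 429 CPM), EGFR (1477 and 1303 CPM) and the basal keratins KRT14 (21.6 and 9.71 CPM) and KRT17 (235 and 153 CPM) fell. Of the receptor genes behind the triple negative class, PGR averaged 0.0591 and 0.0355 CPM, at the level of a few counts. ESR1 (14.5 and 11.5 CPM) and ERBB2 (120.2 and 83.8 CPM) were detected in every library and fell. The 16 leukocyte, endothelial and fibroblast markers summed to between 56.9 and 65.5 CPM in shControl and between 48.6 and 61.6 CPM in shCK5-22. CD68 was listed at 0 in every library, and most of the sum came from COL1A1 (32.0 and 27.0 CPM) and CDH5 (21.2 and 22.2 CPM). Of the 16, PDGFRB (0.0518 and 1.08 CPM) and LUM (0.101 and 0.373 CPM) rose, and PECAM1 (5.02 and 2.15 CPM) and COL1A1 fell. The library of shCK5-22 replicate 1 stood apart from the other two of its group. Its chi-square statistic per degree of freedom against them was 33.7 and 19.8, where the pairs within shControl had at most 4.88. A pair of ribosomal RNA precursor rows took 1.03% of its counts 2.26% and 1.96% of those of shCK5-22 replicates 2 and 3, and between 1.28% and 1.34% of those of shControl, so by this share replicates 2 and 3 lay farther from shControl. The part of these differences in the results was not tested, and values without that library are given where it matters.

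Of the 9 members, 8 were tested. Thioredoxin reductase 1 (TXNRD1), heme oxygenase 1 (HMOX1) and KEAP1 rose, malic enzyme 1 (ME1) fell, and NFE2L2, NQO1, GCLC and GCLM did not pass the test. That is 4 of 8 called at an adjusted p of 0.05, where 34.2% of all genes tested were called, 17.4% higher and 16.8% lower. Among the 10459 genes with a mean of at least 5 CPM, a level all 8 exceeded, 47% were called, 24.8% higher and 22.2% lower. The share of members called is therefore near that of other genes at their level. The groups did not overlap for 5 of the 8, where 45.1% of all genes tested and 56.9% of those with at least 5 CPM did not overlap. The median log2 fold change was 0.09 for the 8 members and -0.01 for all genes. In bulk RNA, fewer cells with a transcript and less of it per cell cannot be told apart.

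**Figure D1:**
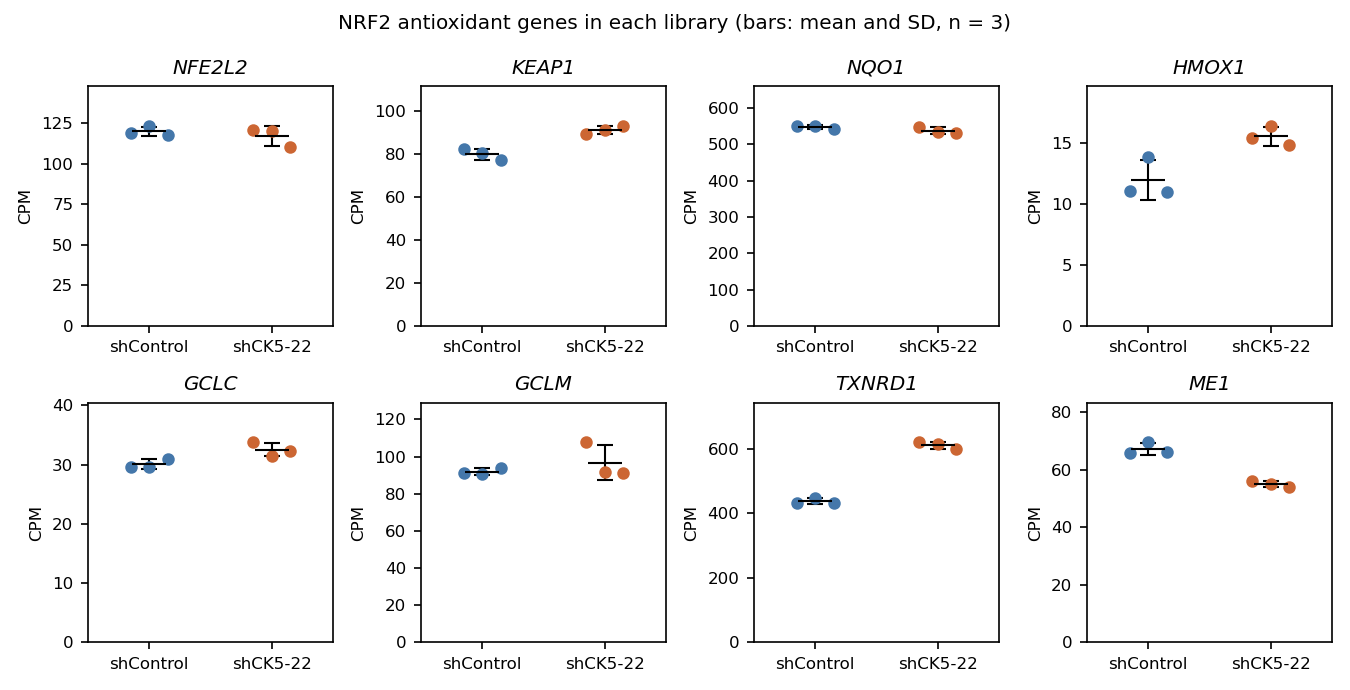
CPM (y axis, from 0) of each tested member in the 3 shControl libraries (blue) and the 3 shCK5-22 libraries (orange), with the group mean and SD in black. TXNRD1, KEAP1, HMOX1 and GCLC are higher and ME1 is lower in every shCK5-22 library than in any shControl library, while NFE2L2, NQO1 and GCLM overlap.

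Of the transcription factor and its inhibitor, only KEAP1 was called. NFE2L2 (chromosome 2, 177227595 to 177392697, minus strand, GRCh38), which encodes NRF2, measured 118.9, 123.4 and 118.1 CPM in the shControl libraries and 121.0, 120.2 and 110.3 CPM in those of shCK5-22, replicates 1, 2 and 3 in order. The groups overlapped, with shCK5-22 replicate 3 the lowest library. Its log2 fold change was -0.04 (SE 0.0372, 95% interval -0.113 to 0.041, adjusted p = 0.506), and it was 0.01 without shCK5-22 replicate 3. Of its exon bases, 17.6% are shared with AC019080.1, a gene on the same strand whose row is at 0 in every library, which makes its count less certain.

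KEAP1 (chromosome 19, 10486120 to 10503741, minus strand), the cysteine-rich adaptor that directs NRF2 to degradation, measured 82.3, 80.8 and 77.3 CPM in the shControl libraries and 89.4, 91.5 and 93.2 CPM in those of shCK5-22. Every shCK5-22 library was above every shControl library. The mean rose 1.14-fold, from 80.1 ± 2.55 to 91.4 ± 1.92 CPM (SD, n = 3 each; adjusted p = 0.00029, edgeR quasi-likelihood test). Within each library, which needs no scaling between libraries, KEAP1 had 0.692, 0.655 and 0.654 counts per NFE2L2 count in shControl and 0.739, 0.762 and 0.845 in shCK5-22. The groups of this ratio did not overlap (exact permutation test, two-sided, p = 0.1, the smallest that 3 against 3 libraries can give). It is 1 of 5 count ratios, chosen after the values were seen, and its p adjusted over them by Benjamini-Hochberg was 0.125.

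TXNRD1 (chromosome 12, 104215779 to 104350305, plus strand), the selenoenzyme that uses NADPH to reduce thioredoxin in the cytosol, had the largest change of the members. It measured 430.2, 447.2 and 432.6 CPM in the shControl libraries and 619.1, 614.2 and 598.7 CPM in those of shCK5-22. The lowest shCK5-22 library was 151.5 CPM above the highest shControl library. The mean rose 1.40-fold, from 437 ± 9.23 to 611 ± 10.7 CPM (log2 fold change 0.48, SE 0.0281, adjusted p = 1.9e-11). Of all genes tested 17.6% had a larger absolute log2 fold change, and of those with at least 5 CPM 7.17% did. No 50-base window of its transcripts occurs in another GENCODE gene, and its exons overlap no other gene.

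NQO1 (chromosome 16, 69706996 to 69726951, minus strand), the quinone reductase often read as a measure of NRF2 output, was not called. It measured 550.6, 550.5 and 542.9 CPM in the shControl libraries and 547.4, 535.4 and 530.7 CPM in those of shCK5-22. The groups overlapped, and the log2 fold change was -0.03 (SE 0.027, 95% interval -0.083 to 0.029, adjusted p = 0.494). An antisense gene covers 17.7% of its exon bases, and the sources used here do not say whether the counting used strand. There were 0.781, 0.812 and 0.797 TXNRD1 counts per NQO1 count in shControl and 1.131, 1.147 and 1.128 in shCK5-22. TXNRD1 thus had fewer counts than NQO1 in every shControl library and more in every shCK5-22 library (exact permutation test, two-sided, p = 0.1, adjusted 0.125).

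HMOX1 (chromosome 22, 35380361 to 35394214, plus strand), which opens heme to biliverdin, iron and carbon monoxide, was the least abundant of the tested members by CPM. It measured 11.0, 13.8 and 11.0 CPM in the shControl libraries and 15.4, 16.4 and 14.8 CPM in those of shCK5-22, on 530 to 1007 counts per library. The groups did not overlap, but shControl replicate 2 lay within 0.968 CPM of the lowest shCK5-22 library. The mean rose 1.30-fold, from 11.9 ± 1.62 to 15.5 ± 0.803 CPM (adjusted p = 0.0016). Its coefficient of variation in shControl, 13.6%, was the widest of the tested members. The log2 fold change was 0.38, and it lay between 0.32 and 0.50 when each library was left out in turn.

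The 2 subunits of glutamate-cysteine ligase, the first step of glutathione synthesis, did not pass the test. The catalytic subunit GCLC (chromosome 6, 53497341 to 53616970, minus strand) measured 29.6, 29.6 and 31.0 CPM in the shControl libraries and 33.7, 31.5 and 32.3 CPM in those of shCK5-22. Its groups did not overlap, by a gap of 0.533 CPM, and its log2 fold change was 0.11 (SE 0.0503, 95% interval 0.006 to 0.216, adjusted p = 0.0968).
The modifier subunit GCLM (chromosome 1, 93885205 to 93909456, minus strand) measured 91.1, 90.4 and 93.9 CPM in the shControl libraries and 107.6, 91.9 and 91.0 CPM in those of shCK5-22. Only shCK5-22 replicate 1, the library that stood apart above, was high, and the other two were within the range of shControl. The log2 fold change was 0.08 (SE 0.057, 95% interval -0.048 to 0.203, adjusted p = 0.345) and -0.01 without that library. The ratio of GCLM to GCLC counts was 3.05 ± 0.0226 in shControl and 2.98 ± 0.192 in shCK5-22 (exact permutation test, two-sided, p = 0.5).

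ME1 (chromosome 6, 83210389 to 83431071, minus strand), the cytosolic malic enzyme that makes NADPH and also serves fatty acid synthesis, moved against the other called members. It measured 65.9, 69.6 and 66.2 CPM in the shControl libraries and 56.3, 55.2 and 54.2 CPM in those of shCK5-22. Every shCK5-22 library was below every shControl library. The mean was 1.22-fold lower, at 67.2 ± 2.03 and 55.2 ± 1.03 CPM (log2 fold change -0.28, SE 0.0396, adjusted p = 8.2e-06). Per NQO1 count there were 0.123 ± 0.00337 ME1 counts in shControl and 0.103 ± 0.000511 in shCK5-22 (exact permutation test, two-sided, p = 0.1, adjusted 0.125).

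SRXN1 (chromosome 20, 646615 to 653370, minus strand), sulfiredoxin, which restores overoxidised peroxiredoxins, was listed at 0 in all 6 libraries. This zero cannot be read as a lack of transcript. Of the exon bases of SRXN1 in GENCODE release 29, 85% are shared with AL121758.1, a gene on the same strand. AL121758.1 has no row under that symbol here. Among protein-coding genes with at least 50% of their exon bases shared in this way, 59.2% were at 0 in every library, against 14.4% of those with none shared. Of the other pathway and marker genes listed at 0 in every library, UGT1A6 had 44% and CD68 81.7% of exon bases shared on the same strand. The rest, PRDX2, GLRX and CBR1 among them, had 0%. Why the SRXN1 row is at 0 was not tested, and SRXN1 was not in the comparison of the groups.

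**Figure D2:**
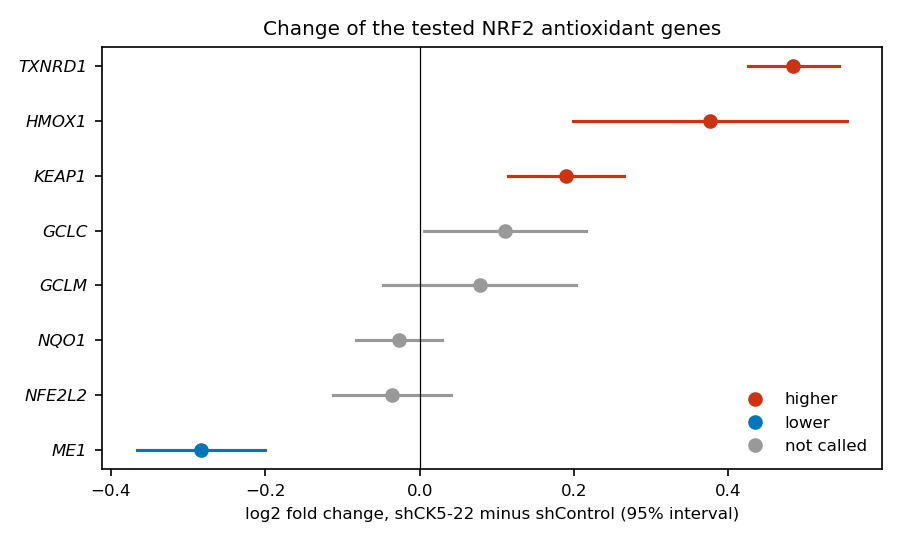
Log2 fold change (x axis, shCK5-22 minus shControl) of the 8 tested members with its 95% interval from the edgeR fit; red marks a higher, blue a lower and grey an uncalled gene. TXNRD1, at 0.48, has an interval above those of KEAP1, GCLC, GCLM, NQO1 and NFE2L2, and only the interval of ME1 lies wholly below 0.

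Levels of different members were compared per length, as CPM per kilobase of all exons joined, which is approximate because not every annotated exon need be used. In shControl NQO1 was the highest at 168 ± 1.36, followed by TXNRD1 at 65.1 ± 1.37, KEAP1 at 21.3 ± 0.678, NFE2L2 at 20.1 ± 0.478, ME1 at 19.9 ± 0.601, GCLM at 16.9 ± 0.345, HMOX1 at 4.97 ± 0.676 and GCLC at 3.48 ± 0.0908 (SD, n = 3). KEAP1 and NFE2L2 overlapped in range, as did NFE2L2 and ME1; the other neighbours did not. In shCK5-22 TXNRD1 was at 91.0 ± 1.59 and KEAP1 at 24.3 ± 0.512, above NFE2L2 at 19.6 ± 0.997. ME1, at 16.4 ± 0.304, was then below GCLM, at 17.9 ± 1.72, by a narrow margin. The highest ME1 library had 16.7 and the lowest GCLM library 16.8. These ranges hold the spread between libraries and not the error in the lengths used. They therefore do not settle the order of genes that lie close in level.

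**Figure D3:**
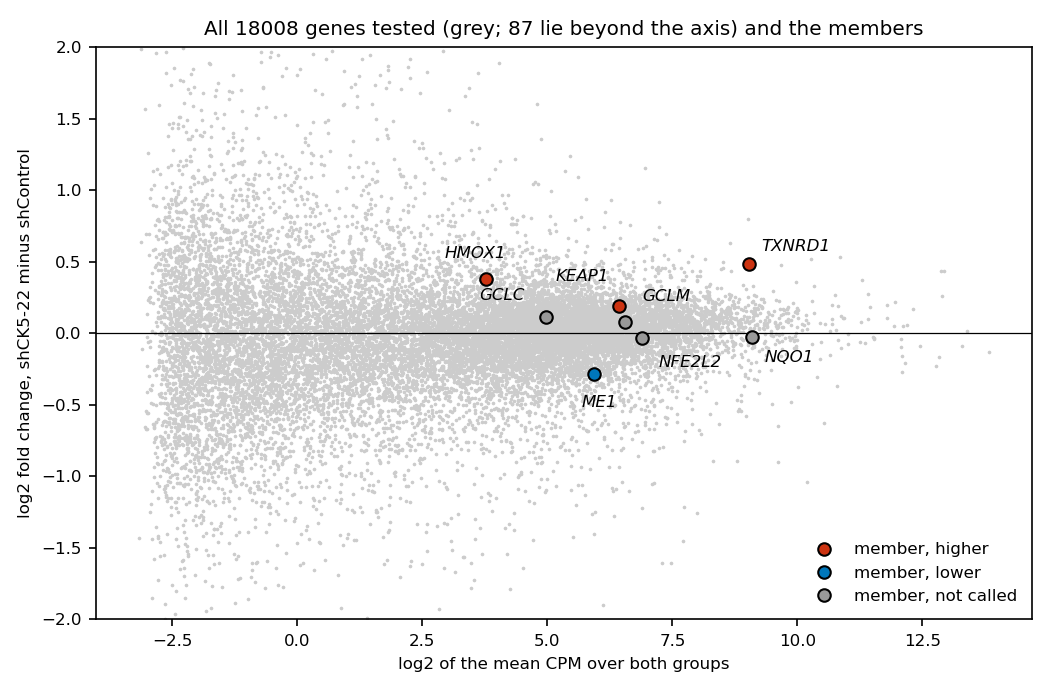
Log2 fold change (y axis) against the log2 of the mean CPM (x axis) for the 18008 genes tested, in grey, with the 8 tested members marked by call; 87 genes lie beyond the axis limit of 2. TXNRD1 stands above most genes of its abundance, and NFE2L2, NQO1, GCLC and GCLM lie within the body of the distribution.

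The genes whose levels followed TXNRD1 most closely over the 6 libraries, of 10458 with a mean of at least 5 CPM, were AIDA (Pearson r = 0.9995), ANTXR2 (0.9992) and HMGA1 (0.9989). AIDA rose 1.23-fold from 114 to 140.1 CPM, ANTXR2, an anthrax toxin receptor, 1.65-fold from 24.7 to 40.7 CPM, and HMGA1, a chromatin architecture protein, 1.21-fold from 2464 to 2975 CPM. These correlations describe 6 libraries in 2 groups, so any gene with a clean difference between the groups scores high. AIDA shares 19.6% of its 50-base windows with other genes, which makes its count less certain.

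Beyond the members, 160 genes in 7 lists cover the rest of the pathway and the redox systems around it. Of these, 140 were tested, with 34 higher and 38 lower (51.4%, against 34.2% of all genes tested and 47% of those with at least 5 CPM; some of the 140 were below that level), and a median log2 fold change of -0.02. A gene in several lists is counted once here; 19 were. Of the genes not tested, 15 were listed at 0 in all 6 libraries, among them PRDX2, GLRX and CBR1, which encode common cytosolic enzymes; such rows give no evidence on expression.

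Of 20 partners and regulators of NRF2, 9 were higher and 3 lower, and their median log2 fold change was 0.03, where 24.8% and 22.2% of all genes with at least 5 CPM were higher and lower. SQSTM1, the p62 autophagy receptor that binds KEAP1 and is itself an NRF2 target, rose 1.43-fold from 233 ± 0.726 to 334 ± 9.11 CPM (adjusted p = 9.9e-12), although 20.7% of its exon bases lie opposite MRNIP. All 3 small MAF genes, the partners NRF2 needs to bind DNA, were higher: MAFF by 0.35, MAFG by 0.33 and MAFK by 0.19 on the log2 scale. BACH1, the repressor that competes with NRF2 for the same sites and is released by heme, also rose by 0.35, from 23.4 to 29.9 CPM. CUL3, the ligase scaffold that works with KEAP1, rose by 0.13. The 3 that fell were RXRA and SYVN1, which have been described as restraining NRF2, by 0.29 and 0.25, and NFE2L3, a relative of NRF2, by 0.10.

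Other NRF2 targets were called in 67.7% of cases, against 34.2% of all genes tested and 47% of genes with at least 5 CPM. They went both ways: of 31 tested, 9 were higher and 12 lower, with a median of -0.10. Among those that rose were the cystine transporter gene SLC7A11, by 0.54 on the log2 scale, its level going from 7.57 ± 0.655 to 11.0 ± 1.5 CPM, CES1, a carboxylesterase that shares 29.8% of its 50-base windows with other genes and is therefore uncertain, by 0.59, and OSGIN1 by 0.36. The ferritin chains FTL and FTH1 rose by 0.33 and 0.17, FTL from 1138 ± 49.5 to 1428 ± 45.6 CPM, but a processed copy, FTLP3, shares 18.3% of the 50-base windows of FTL. BLVRB, a biliverdin reductase, fell by 0.74 from 55.4 ± 1.47 to 33.2 ± 3.31 CPM. Glutathione reductase (GSR) fell by 0.28, the microsomal transferase MGST1 by 0.24, and the export pumps ABCC2 and ABCC3 by 0.34 and 0.37.

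In glutathione metabolism 5 of 29 genes were higher and 8 lower (median -0.04). The share called was 44.8%, against 34.2% of all genes tested and 47% of genes with at least 5 CPM. CHAC1, which degrades glutathione, rose by 0.42 on the log2 scale at 4.28 and 5.74 CPM (adjusted p = 0.0134). That call was lost without shControl replicate 2 (0.0919), without shCK5-22 replicate 3 (0.0962) and at the threshold of 0.01. Over all alternatives the adjusted p lay between 0.003 and 0.0962. GSTT2B fell by 0.45, but 90.9% of its windows occur in GSTT2. The peroxidase gene GPX1, the most abundant of the list by CPM, had 291 CPM in shControl and 295 in shCK5-22, and the phospholipid peroxidase gene GPX4 had 176 and 174; neither passed the test. The list had 3 higher without shControl replicate 2 or without shCK5-22 replicate 3, and 5 lower without shControl replicate 2.

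The thioredoxin and peroxiredoxin system had 6 of 17 higher and 2 lower (median 0.02). The share called was 47.1%, against 34.2% of all genes tested and 47% of genes with at least 5 CPM. Thioredoxin itself (TXN), the substrate of TXNRD1, averaged 266 ± 8.31 CPM in shControl against 269 ± 13.7 in shCK5-22 and was not called (log2 fold change 0.01, adjusted p = 0.82). There were 1.64 ± 0.0327 TXNRD1 counts per TXN count in shControl and 2.28 ± 0.136 in shCK5-22 (exact permutation test, two-sided, p = 0.1, adjusted 0.125). MSRB3, a methionine sulfoxide reductase, rose by 0.91 from 5.88 ± 0.386 to 11.1 ± 0.498 CPM, and MSRB1 fell by 0.33. TXNIP, the thioredoxin-binding inhibitor, rose by 0.51 from 113 ± 12.3 to 162 ± 17.5 CPM (adjusted p = 0.0366, between 4.2e-12 and 0.113 over the alternatives). That call was lost with no filter and without shControl replicate 1, shControl replicate 3, shCK5-22 replicate 2 or shCK5-22 replicate 3 (0.0691 to 0.113). The TXNIP call was also lost at the threshold of 0.01. The number of genes higher in the list was 3 without shControl replicate 1, 2 without shControl replicate 3 and 3 without shCK5-22 replicate 3, and 1 was lower without shControl replicate 1, shControl replicate 2 or shCK5-22 replicate 1.

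Of 14 enzymes that make or remove superoxide and hydrogen peroxide, 2 rose and 4 fell (median -0.24). The share called was 42.9%, against 34.2% of all genes tested and 47% of genes with at least 5 CPM. Mitochondrial superoxide dismutase (SOD2), also a target of NF-kB, rose 1.54-fold from 61.8 ± 2.50 to 95.2 ± 3.24 CPM (adjusted p = 7.7e-11), and cytosolic SOD1 rose by 0.18 on the log2 scale. The annotation has 2 overlapping entries for SOD2, and 44.6% of the exon bases of the shorter lie opposite ACAT2. Catalase (CAT) fell by 0.34, xanthine dehydrogenase (XDH) by 0.52 from 15.8 ± 0.645 to 11.0 ± 0.830 CPM, the NADPH oxidase NOX5 by 0.52 and the oxidase subunit CYBA by 0.19.

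**Figure D4:**
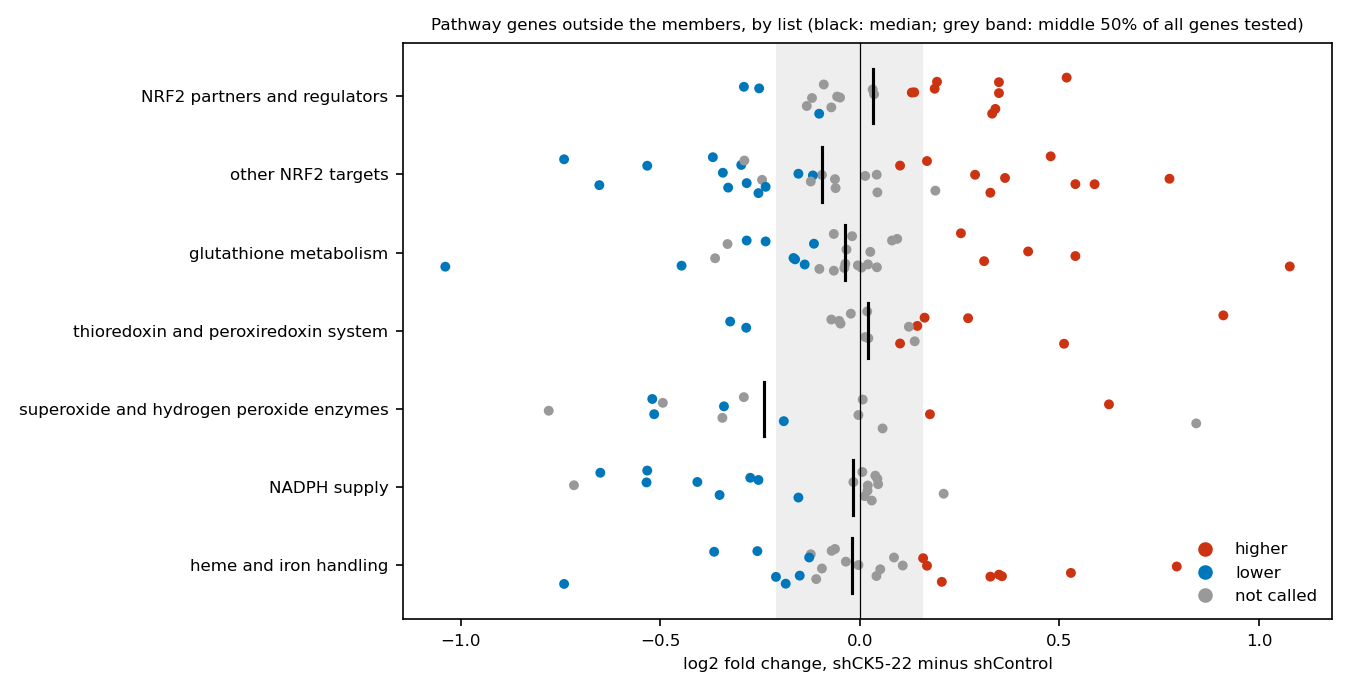
Log2 fold change (x axis) of each tested pathway gene outside the members, 1 point per gene and 1 row per list, with the list median in black and the middle 50% of all genes tested (-0.21 to 0.15) as a grey band; points are spread vertically at random. NADPH supply has 8 blue points (lower) and 0 red points (higher), and the partners and regulators have 9 red and 3 blue.

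Genes of NADPH supply, the cofactor that both thioredoxin reductase and glutathione reductase consume, fell in 8 of 19 cases and rose in 0. Among all genes with at least 5 CPM, 22.2% were lower and 24.8% higher. The share of the list called in either direction was 42.1%, against 47% of genes at that level and 34.2% of all genes tested. The median was -0.02, and the other 11 were not called. The isocitrate dehydrogenases IDH1 and IDH2, of the cytosol and mitochondria, fell by 0.65 and 0.53 on the log2 scale, IDH1 from 115 ± 6.18 to 73.3 ± 3.27 CPM. The pentose phosphate pathway enzymes PGLS, PGD and TALDO1 fell by 0.27, 0.15 and 0.25 on that scale, and H6PD, which makes NADPH in the endoplasmic reticulum, fell by 0.35. TKT, the most abundant gene of the list, had 775 and 799 CPM without passing the test. ME1 fell as these did, and its mitochondrial relatives ME2 and ME3 were not called, with 16.3 and 16.8 CPM for ME2 and 3.55 and 4.11 CPM for ME3. The counts of 0 higher and 8 lower were the same under all 15 alternatives. These refit the same libraries, and the list was chosen with earlier results of these data known.

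**Figure D5:**
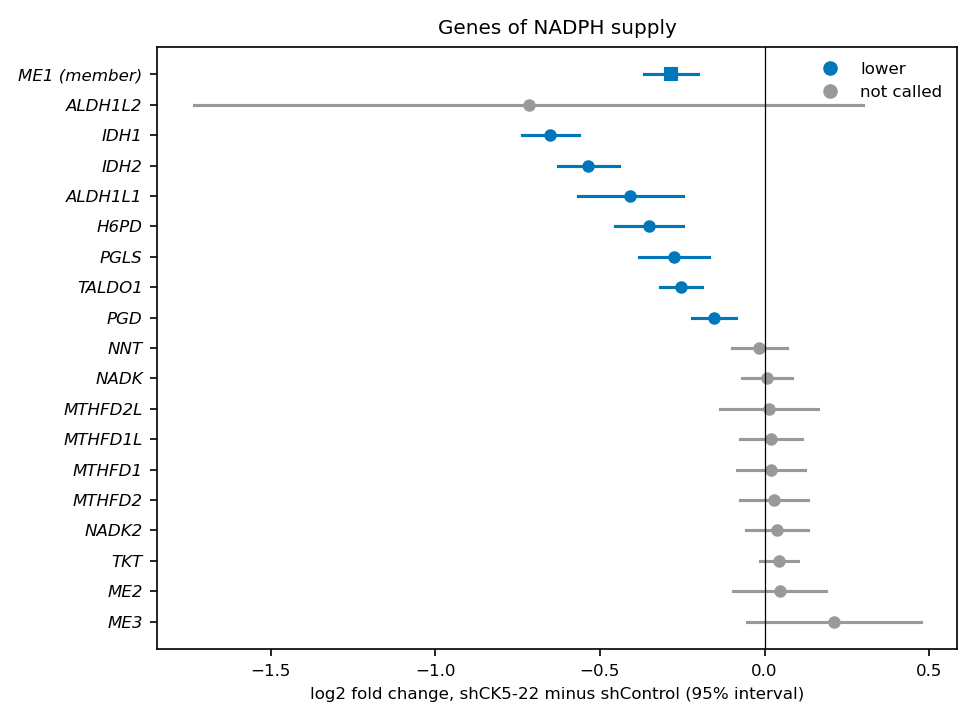
Log2 fold change (x axis, with the 95% interval of the edgeR fit) of 18 genes of NADPH supply and, as a square, of ME1; blue marks a lower and grey an uncalled gene. IDH1 and IDH2 lie at -0.65 and -0.53, and the grey genes other than ALDH1L2 and ME3 lie close to 0.

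Around HMOX1, genes of heme and iron handling were split, with 8 of 26 higher and 7 lower (median -0.02). The share called was 57.7%, against 34.2% of all genes tested and 47% of genes with at least 5 CPM. The transferrin receptor gene TFRC rose 1.73-fold from 377 ± 1.05 to 654 ± 24.6 CPM (adjusted p = 1.9e-14), the largest change of the list. The heme synthesis genes ALAS1, the first and rate-limiting step, CPOX and UROD rose by 0.36, 0.53 and 0.21 on the log2 scale, and ALAD fell by 0.21. HMOX2, the constitutive heme oxygenase, rose by 0.16. NCOA4, which delivers ferritin to autophagy, fell by 0.19. The list had 4 genes lower without shControl replicate 3.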

How the data were processed

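Total RNA of 6 BT20 libraries was sequenced. The authors deposited 1 table of whole-number counts per gene symbol. Per the submitters' processing notes, cutadapt, STAR, SAMtools and Cufflinks were used with GRCh38; which counter was used, with what annotation and treatment of strand and multiply mapped reads, is not stated. Of 56505 rows, 27 with a date for a symbol (at most 0.175% of a library's counts) were left out. Between 86.7% and 89.1% of counts from 1 to 20 were even, so a floor of 3 counts (0.046 to 0.0624 CPM) may be fewer fragments.

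Groups and replicate numbers come from the titles. The fit was edgeR 4.0.16 (R 4.3.3), quasi-likelihood with robust estimation, TMM and filterByExpr, on all genes; p-values are two-sided and adjusted by Benjamini-Hochberg over the 18008 tested, threshold 0.05. An SE is the absolute fold change over the root of F. Nothing in the labels says that replicates are separate cultures, so the spread behind each p-value is between these libraries and may be only technical. The fit was tested on simulated data in which 50 genes were changed at each fold. At 5 CPM or more, 30 of 30 genes changed 1.5-fold were called. Of those given a fold 25% above 1 in either direction, 24 of 29 were called, with 6 false calls over all genes. Far more genes were called in the real data, 6153, so the false calls there may be more than 6. Members and lists were chosen with earlier results of these data known. Beyond the members, the rule names per list the 3 called genes with the largest change at 5 CPM or more and the most abundant gene, and the 3 genes that follow TXNRD1; others are further examples. Some list genes are counted but not reported by name here. Exons and shared windows come from GENCODE release 29. Alternatives were 3 normalizations, 2 filters, DESeq2 1.42.0, limma-voom 3.58.1, a threshold of 0.01, each library left out, and a replicate block.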

Additional observations from a re-analysis of the deposited data

How the results depend on the processing

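Under all 15 alternatives 3 members were higher and 1 lower, and no member's call changed. Log2 fold changes ranged from 0.47 to 0.50 for TXNRD1, 0.32 to 0.50 for HMOX1, 0.16 to 0.21 for KEAP1 and -0.30 to -0.26 for ME1. The direction of uncalled values turned when 1 library was left out: GCLM ranged from -0.0063 to 0.1202 and NFE2L2 from -0.0601 to 0.0055. GPX1 ranged from -0.0235 (without shCK5-22 replicate 2) to 0.062, and TXN from -0.0227 (without shCK5-22 replicate 2) to 0.0509, with -0.0014 for library size only and -0.01 without shControl replicate 3. At a threshold of 0.01 there were 3 higher in glutathione metabolism, 2 higher and 1 lower in the thioredoxin list and 4 lower in heme and iron handling. Leaving out each library in turn gave 3 to 6 higher and 5 to 9 lower in glutathione metabolism, 2 to 6 higher and 1 to 2 lower in the thioredoxin list, 4 to 7 lower in heme and iron handling, and 2 to 5 lower among partners and regulators (5 without shCK5-22 replicate 1). The fits without a library have fewer samples; the cause of each change was not tested. The deviations of same-numbered libraries from their group means correlated weakly (0.065, 0.132 and -0.023 for replicates 1, 2 and 3). Replicates 1 and 2 of shControl correlated best with their own number, and replicate 3 with shCK5-22 replicate 1 (0.064). Whether the numbers mark pairs was not tested. With the replicate block 3456 genes were higher and 3287 lower, against 3134 and 3019 without, and members kept 3 and 1. Depth limits little for the tested members, which had at least 530 counts in every library.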
